A study of Mus musculus with 41 samples.

Results

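Cytosolic ribosomal protein genes encode the protein subunits of the ribosome that translates nuclear mRNA. They were taken by symbol alone: every gene named Rpl or Rps with a number and an optional a, l or x ending, together with Rplp0, Rplp1, Rplp2 and Rpsa, and without the Rps6k kinases and genes whose symbol marks a pseudogene (-ps). The rule found 54 of the 13283 genes with a probe, of which 22 belong to the small subunit, 29 to the large subunit and 3 to the P stalk, and the rule uses symbols, not measured values. Rps4l, counted with the small subunit by its symbol, is listed by RefSeq as a transcribed pseudogene, and the other 53 as protein coding. In thymic epithelial cells (TEC, sorted as CD45-EpCAM+) 53 of them were measured, and in the non-epithelial stroma (nonTEC, sorted as CD45-EpCAM-) all 54. The well-studied Rpl5 and Rpl11 were not analysed here.

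RNA of both fractions was hybridised to 41 Illumina arrays, 24 of TEC and 17 of nonTEC, and the deposited values are normalized log2 intensities. All mice were male C57Bl/6. Young mice were 5 to 6 weeks old and unoperated, middle-aged mice were 9 to 12 months old, and the middle-aged mice were unoperated, or castrated or sham-castrated and taken 4, 7 or 20 days after surgery (20 days for TEC only). Each group had 3 arrays, except nonTEC sham day 7 with 2. The labels do not say that the replicates of a group were separate mice, so the p-values measure the spread between arrays, which may be technical. The 12 TEC markers had an average log2 level with group means between 9.91 and 10.8 in TEC, and the 10 of them measured in nonTEC had group means between 6.01 and 7.76 there. In bulk RNA, fewer cells of a type and less RNA per cell cannot be told apart.

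Ribosomal proteins are made in near-equal numbers and built with ribosomal RNA into the small subunit, which reads the mRNA, and the large subunit, which joins amino acids. The acidic stalk of Rplp0, Rplp1 and Rplp2 recruits the elongation factors. Their mRNAs belong to the TOP class, which begins with a run of pyrimidines and whose translation follows growth signals through mTOR and LARP1. In the thymus the best-known member is Rpl22, a large-subunit protein that is not needed for ribosome function in general but is needed for normal development of alpha-beta T cells.

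The promoters of 45 of the 54 members are held in RefSeq's table for build GRCm38.p6, each as 250 bases before and 50 bases after a transcript start. The members printed here are those on which the results turn, from 40 bases before the listed start to 20 bases from it, with the longest pyrimidine run in capitals. Rpl22 and Rpl34 each have a second listed start that is not shown, where the longest run was shorter, 5 bases in Rpl22 and 8 in Rpl34.
Rpl22, chr4:152325686-152325745, plus strand: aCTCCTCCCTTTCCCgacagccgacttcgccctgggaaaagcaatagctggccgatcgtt
Rpl7a, chr2:26910767-26910826, plus strand: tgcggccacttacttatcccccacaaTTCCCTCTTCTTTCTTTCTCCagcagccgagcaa
Rpl24, chr16:55966235-55966294, plus strand: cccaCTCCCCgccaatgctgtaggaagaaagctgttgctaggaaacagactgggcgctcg
Rpl34, chr3:130730318-130730377, minus strand: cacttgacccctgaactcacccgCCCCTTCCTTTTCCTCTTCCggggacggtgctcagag
Rplp2, chr7:141447611-141447670, plus strand: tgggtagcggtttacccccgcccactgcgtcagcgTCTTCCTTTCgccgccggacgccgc
Rps6, chr4:86857348-86857407, minus strand: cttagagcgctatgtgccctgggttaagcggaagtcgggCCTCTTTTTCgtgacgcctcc
The run was 21 bases long in Rpl7a and 20 in Rpl34, lay at the start itself in Rps6 and Rplp2, and was only 6 bases long in Rpl24. In Rpl22 the run of 14 bases began at -39 from the start shown. Rpl22 had no run of 8 or more within 30 bases of either listed start. Within 30 bases of a listed start, a run of 8 or more C or T was present in 24 of the 45 members (53.3%) and in 25.8% of all 27025 genes in the table. The ETS core CCGGAAG, searched on both strands of the whole entry, was present in 21 members (46.7%) and 9.93% of all genes, and GGGCGG in 28 members (62.2%) and 38.2% of all genes. The YY1 motif AANATGGC was found in 7 members (15.6%, all genes 6.96%) and TATAAA in 5 (11.1%, all genes 15.7%). These are matches of letters in the windows, not measured binding sites.

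Most members gave some of the brightest probes on the arrays. The median of their means was 13.1 in TEC and 13.7 in nonTEC, against 7.27 and 7.54 over all genes. Brightness also depends on the probe, so it is not compared between genes as an amount of RNA. It sets what could be seen, since the highest value on any array was 14.67 in TEC and 14.89 in nonTEC. In TEC 13 members had a mean over 14, out of 31 such genes in all, and in nonTEC 20 members out of 66. The 20 brightest TEC members had a median range between group means of 0.281, against 0.865 for the 14 dimmest. Rps29 had the smallest range of group means in TEC, 0.089, with arrays between 14.24 and 14.67, so a change in it could have been hidden by the ceiling. At the other end, Rpl3l, the muscle paralog of Rpl3, lay between 4.33 and 6.11 in TEC, Rpsa, the small-subunit protein that is also known as the laminin receptor, between 4.27 and 5.45, and Rpl6, measured in nonTEC only, had a mean of 4.75. These 3 stayed under 6.73, the level at which a gene entered the tests, and the other 51 were tested in every comparison.

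**Figure D1:**
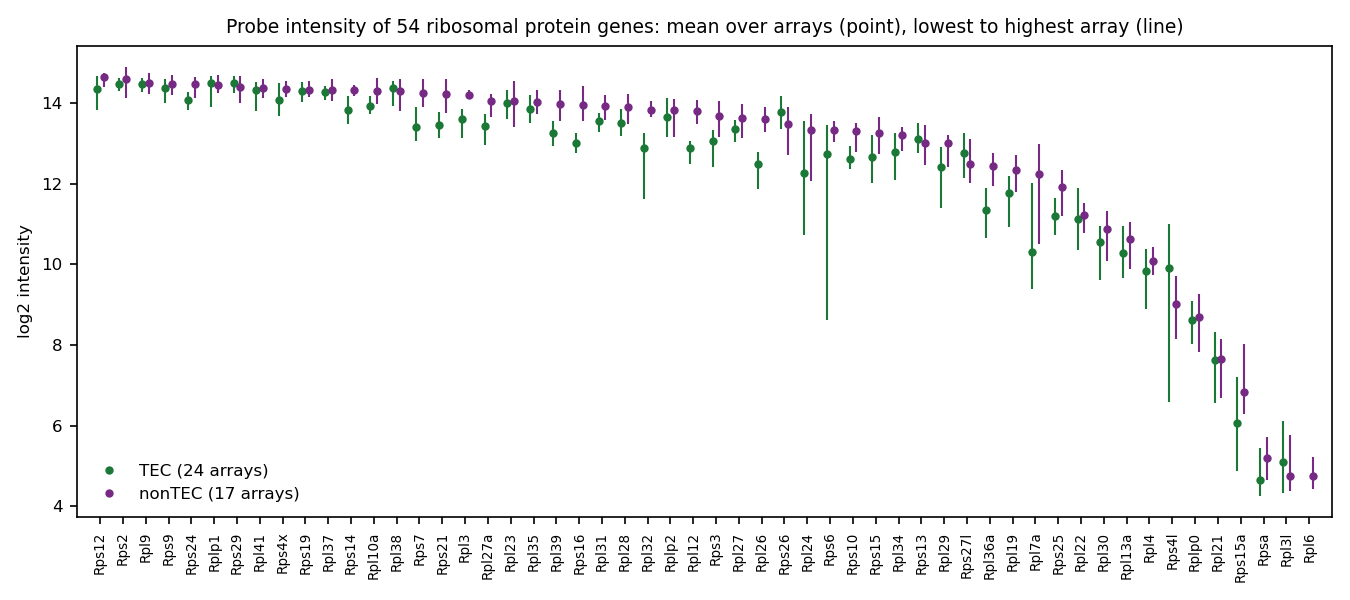
Mean log2 intensity (points) and the lowest to highest array (lines) of each member, in TEC (24 arrays) and nonTEC (17 arrays), ordered by the nonTEC mean. Most members lie above 12 with short lines, while Rps6 and Rps4l have long lines in TEC, down to 8.63 and 6.60, and Rpl7a in nonTEC spans 10.50 to 12.97.

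Taken over all members, the level of an array differed little in TEC. The median over the members of each array had a group mean between 13.1 and 13.2 in every TEC group, with an SD of 0.028 to 0.153 between arrays. In nonTEC it was 13.6 in both unoperated groups and 13.7 to 13.8 in the 4 operated groups, with an SD of 0.005 to 0.166. The 3 young nonTEC arrays (13.53 to 13.58) lay below every operated array (13.63 to 13.84), and the unoperated middle-aged arrays (13.38 to 13.69) overlapped both. The differences called were those of single members, in both directions.

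Rpl22 was the only member called after castration at any single day. On the young TEC arrays it read 10.84, 10.98 and 10.67, and on the middle-aged arrays 11.63, 11.89 and 10.63, so that 2 of the 3 middle-aged arrays lay above all young ones and array 3 lay below them. The sham arrays read 11.28, 11.31 and 11.21 at day 4, 11.32, 11.20 and 11.54 at day 7 and 11.70, 11.62 and 11.49 at day 20. The castrated arrays read 11.34, 10.36 and 10.96 at day 4, 10.66, 10.79 and 10.88 at day 7, and 10.68, 10.83 and 10.90 at day 20. At days 7 and 20 every castrated array lay below every sham array, between 10.66 and 10.90 where the young arrays lay between 10.67 and 10.98. At day 4 castrated array 1 lay above all 3 sham arrays.

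At day 20 Rpl22 fell by 0.80 ± 0.24 (SE) after castration, 1.74-fold (limma, adjusted p = 0.0196), and it was the only one of 51 members called in that comparison. Over all 8195 genes 9.29% were called lower and 12.9% higher at day 20. The call was lost without castrated array 1 (adjusted p = 0.0754), sham array 1 (0.0623) or sham array 2 (0.0606), all limma values, and the difference stayed between -0.85 and -0.58 over all alternatives. The other differences of Rpl22 were -0.38 ± 0.24 at day 4 (limma adjusted p = 0.321) and -0.58 ± 0.24 at day 7 (limma adjusted p = 0.308). A test of unequal castration differences over the 3 days did not call it (limma adjusted p = 0.636). The average over the 3 days, a comparison added after seeing these values, was -0.59 ± 0.14, 1.5-fold lower (limma adjusted p = 0.014, with 4.95% of genes called lower and 5.77% higher). It remained called when any 1 array was left out, with a difference between -0.66 and -0.50. At day 4 alone the Rpl22 difference was -0.11 ± 0.24 without castrated array 2 and -0.60 ± 0.25 without castrated array 1 (limma adjusted p = 0.832 and 0.0958). In that average Rpl21, a large-subunit protein, was the only other member called, 1.36-fold lower (-0.44 ± 0.12, limma adjusted p = 0.022), a call lost without sham day 20 array 2 (0.0521). At day 20 Rpl21 read 7.04, 7.38 and 7.18 on the sham arrays and 6.56, 6.58 and 6.80 on the castrated arrays, without overlap, and all 3 of its probes were lower there, by -0.69 to -0.55.

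With age Rpl22 rose in nonTEC, and its difference in TEC had the same sign. In TEC the difference of middle-aged from young was 0.55 ± 0.24 and was not called (limma adjusted p = 0.107). It rested on single arrays: without middle-aged array 3 it was 0.93 ± 0.19 (limma adjusted p = 0.0014), without middle-aged array 2 it was 0.30 ± 0.24 (0.413) and without middle-aged array 1 it was 0.43 ± 0.27 (0.247). In nonTEC the young arrays read 10.77, 10.80 and 10.80 and the middle-aged arrays 11.31, 11.26 and 11.25, with no overlap, a rise of 0.49 ± 0.11 (limma adjusted p = 0.00244). The age differences of the 2 fractions differed by 0.07 ± 0.27 (limma adjusted p = 0.895), which does not show that they were equal. That value for Rpl22 was -0.18 ± 0.26 without middle-aged TEC array 2 (limma adjusted p = 0.691) and 0.44 ± 0.21 without middle-aged TEC array 3 (0.153). Castration in nonTEC gave Rpl22 differences of -0.17 ± 0.11 at day 4 and -0.10 ± 0.12 at day 7, and the average of both days was -0.13 ± 0.08, none called (limma adjusted p = 0.376, 0.878 and 0.407). In that average 0 of 51 members were called, where 2.67% of 7762 genes were called higher and 3.72% lower. Only 1 member had an unadjusted p under 0.05, a level not counted over all genes. The castration differences of TEC and nonTEC, averaged over days 4 and 7, differed by -0.35 ± 0.20 for Rpl22 (limma adjusted p = 0.28), and -0.21 ± 0.18 without castrated day 4 TEC array 2 (0.507).

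**Figure D2:**
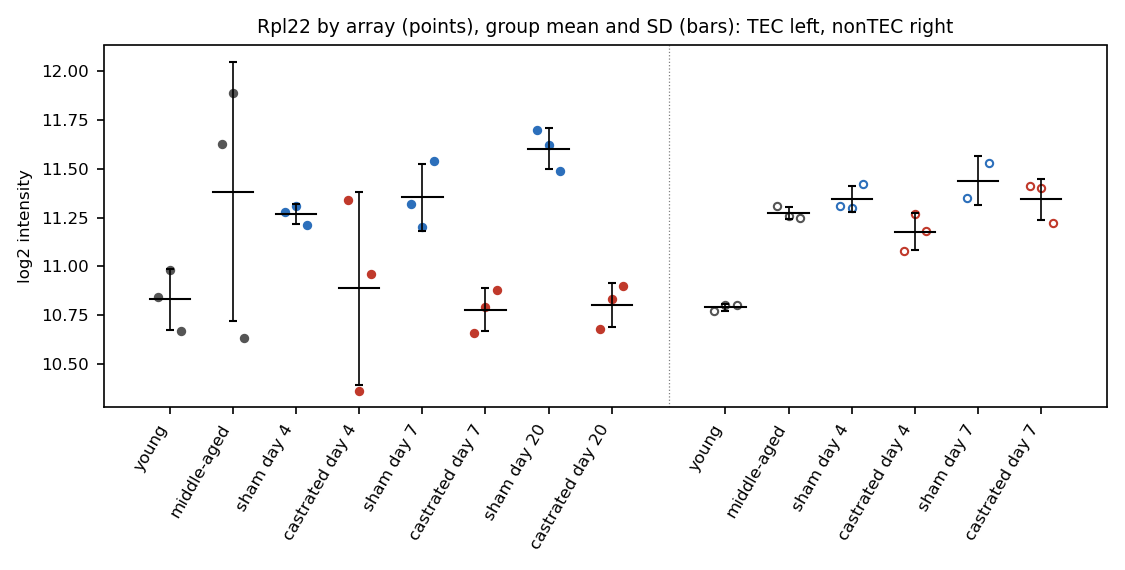
Rpl22 log2 intensity on each array (points) with the group mean and SD (bars), TEC filled and nonTEC open, for unoperated (grey), sham (blue) and castrated (red) groups. The castrated TEC arrays of days 7 and 20 lie between 10.66 and 10.90, below the sham arrays of those days, which lie between 11.20 and 11.70.

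Markers of leukocytes moved with these comparisons in TEC, although CD45+ cells were sorted out. The 4 pan-leukocyte markers measured there (Cd52, Coro1a, Laptm5 and Rac2) had group means of 11.4 in young and 10.5 in middle-aged TEC, and of 9.92 in sham and 11.1 in castrated TEC at day 20, where 4 of 4 were called higher. At day 7, where the Rpl22 arrays also did not overlap, they were 10.7 in sham and 10.8 in castrated TEC. Of 12 cell cycle genes tested, 4 were called higher after castration at day 20 and 0 lower, with a median difference of 0.75. Of the other markers at day 20, 3 of 4 myeloid, 2 of 2 B cell and 2 of 3 erythroid genes were called higher. Immediate early genes moved in the same comparisons: 9 of 16 were called higher with age in TEC, with group means of 10.6 in young and 11.3 in middle-aged. At day 20 after castration 10 of 16 were called lower, with a median of -1.12 and group means of 11.3 in sham and 10.2 in castrated TEC. At day 7 these means were 11.1 and 11.2. Over all genes 12.9% were called higher and 9.29% lower after castration at day 20, and 11.9% and 6.75% with age. The part of these cells and genes in the Rpl22 values was not tested.

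In TEC the only member called with age was Rpl13a, a large-subunit protein also known for a role in inflammatory translation control. It read 10.68, 10.95 and 10.69 in young and 10.46, 9.65 and 10.23 in middle-aged TEC. The groups did not overlap, and the fall was 0.66 ± 0.16, 1.58-fold (limma adjusted p = 0.00949). It was lost without young array 2 (limma adjusted p = 0.0544) or middle-aged array 2 (0.0555). That was 1 of 51 members, against 6.75% of 8195 genes called lower and 11.9% called higher. The median difference of the members was -0.06 and that of all genes 0.01. Probes not used could differ more: that of Rps3 had group means of 10.74 in young and 8.88 in middle-aged TEC (-1.86), against -0.18 for the probe used. The unused Rps24 probes differed by -0.865 and 0.326, against -0.01 for the probe used. These probes were not tested on their own. With the sham arrays of all 3 days in place of the unoperated middle-aged arrays, 1 member was called higher, Rpl22 (0.58). Called lower were 7, among them Rpl34 (-0.42), Rpl29 (-0.44) and Rplp2 (-0.35), against 12.2% of genes called higher and 14.1% lower. This average includes day 20, whose day and any batch cannot be told apart. Rpl29 read 12.59 to 12.89 in young TEC, 12.49 to 12.91 on the sham arrays of days 4 and 7, and 11.40 to 11.69 at sham day 20. For Rpl34 these ranges were 12.95 to 13.25, 12.72 to 13.07 and 12.26 to 12.44.

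More members changed with age in nonTEC, 5 up and 6 down of 51, where 16.9% of 7762 genes were called higher and 15.6% lower. The share of members called was thus below that of all genes. The largest change was that of Rpl7a, a large-subunit protein. It read 10.50, 10.77 and 10.79 on the young arrays, 12.12, 12.62 and 12.60 on the middle-aged arrays, and between 12.33 and 12.97 on the 11 arrays of operated mice. The young arrays stood apart from all 14 others, and the rise was 1.75 ± 0.14, 3.37-fold (limma adjusted p = 3.95e-07). In TEC Rpl7a went the other way without being called, from 10.21, 10.80 and 10.64 in young to 10.10, 9.65 and 9.39 in middle-aged (-0.84 ± 0.35, limma adjusted p = 0.101). The difference between the fractions was -2.59 ± 0.41 (limma adjusted p = 0.000111). In the test of that difference 3 members were called higher and 1 lower, with 7.78% and 3.45% of 8487 genes. The 3 called higher were Rplp2, Rps13 and Rps27l.

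The other members that rose with age in nonTEC were Rpl24, which sits at the contact of the subunits, Rpl21, Rplp0, the base of the stalk, and Rpl22. Rpl24 read 13.18, 12.06 and 12.16 in young and 13.18, 13.72 and 13.52 in middle-aged nonTEC, so young array 1 equalled the lowest middle-aged array, and the difference was 1.0 ± 0.20 (limma adjusted p = 0.00132). Rpl21 read 6.92, 6.69 and 6.80 in young and 7.38, 7.98 and 8.0 in middle-aged nonTEC, without overlap, a rise of 0.98 ± 0.18 (limma adjusted p = 0.000626). All 3 of its probes rose, by 0.58 to 0.98. Rplp0 read 8.39, 8.05 and 7.83 in young and 8.27, 8.91 and 9.01 in middle-aged nonTEC, with overlap, a rise of 0.64 ± 0.19 (limma adjusted p = 0.0179). The call of Rplp0 was lost without middle-aged array 2 (limma adjusted p = 0.0619), middle-aged array 3 (0.068) or young array 3 (0.0933).

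The members that fell with age in nonTEC were Rps27l, Rplp2, Rps13, Rps26, which lies at the mRNA exit of the small subunit, and Rpl39 and Rpl31, both of the peptide exit tunnel. Rps27l, a paralog of Rps27 that p53 induces, read 13.10, 12.65 and 12.79 in young and 12.01, 12.13 and 12.36 in middle-aged nonTEC, without overlap, a fall of 0.68 ± 0.13 (limma adjusted p = 0.000975). Rplp2, a partner of Rplp1 in the stalk, read 13.95, 14.01 and 14.02 in young and 13.27, 13.16 and 13.80 in middle-aged nonTEC, a fall of 0.59 ± 0.12 (limma adjusted p = 0.00203). The falls of the other 4 were between 0.36 (Rpl31) and 0.49 (Rps13). Leaving out 1 array ended the call of Rps26 in 4 of 6 cases, at differences down to -0.31 (either young array 1 or 3, or middle-aged array 1 or 2). It ended those of Rps13 (young array 1, -0.36, or middle-aged array 1, -0.37) and Rpl39 (young array 1, -0.29, or middle-aged array 2, -0.31) in 2 of 6 each. In Rpl31 one of the other 2 probes rose, by 0.37, and the mean of its probes gave -0.05 (limma adjusted p = 0.842).

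The risers and the fallers differed in how they read on the operated arrays. With the sham arrays in place of the unoperated middle-aged arrays, the 5 risers were still called, as was the fall of Rps27l. Both comparisons use the same 3 young arrays, so readings particular to those arrays enter both. In all 9 members were then called higher and 1 lower, against 16.2% and 13.4% of genes. The differences of the other 5 fallers became -0.04 for Rplp2, -0.09 for Rps13, -0.10 for Rpl31, -0.16 for Rpl39 and 0.22 for Rps26, none called (limma adjusted p between 0.226 and 0.814). The comparison of sham with unoperated nonTEC used the same 3 middle-aged arrays as the age comparison, with the opposite sign. Low readings on them therefore enter both a fall with age and a rise in sham. In nonTEC sham against unoperated, 43 of 51 members had a positive difference, with a median of 0.15 against 0.01 for all genes. Of these only Rps26 (0.67 ± 0.13, limma adjusted p = 0.0414) and Rplp2 (0.54 ± 0.11, limma adjusted p = 0.0439) were called, with 0.245% of genes called higher and 0.0515% lower. The call of Rps26 was lost under 10 of its 16 alternatives and that of Rplp2 under 11. In TEC sham against unoperated also included day 20, whose day and any batch cannot be told apart. It called Rplp2 lower (-0.40 ± 0.09, limma adjusted p = 0.0188) and Rpl34 lower (-0.37 ± 0.09, limma adjusted p = 0.0226), with 3.72% of genes called lower and 1.9% higher. Rpl34 read 12.91 to 13.14 on the unoperated middle-aged TEC arrays, 12.72 to 13.07 on sham days 4 and 7, and 12.26 to 12.44 on sham day 20. For Rplp2 these ranges were 13.78 to 14.11, 13.44 to 13.97 and 13.34 to 13.43.

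**Figure D3:**
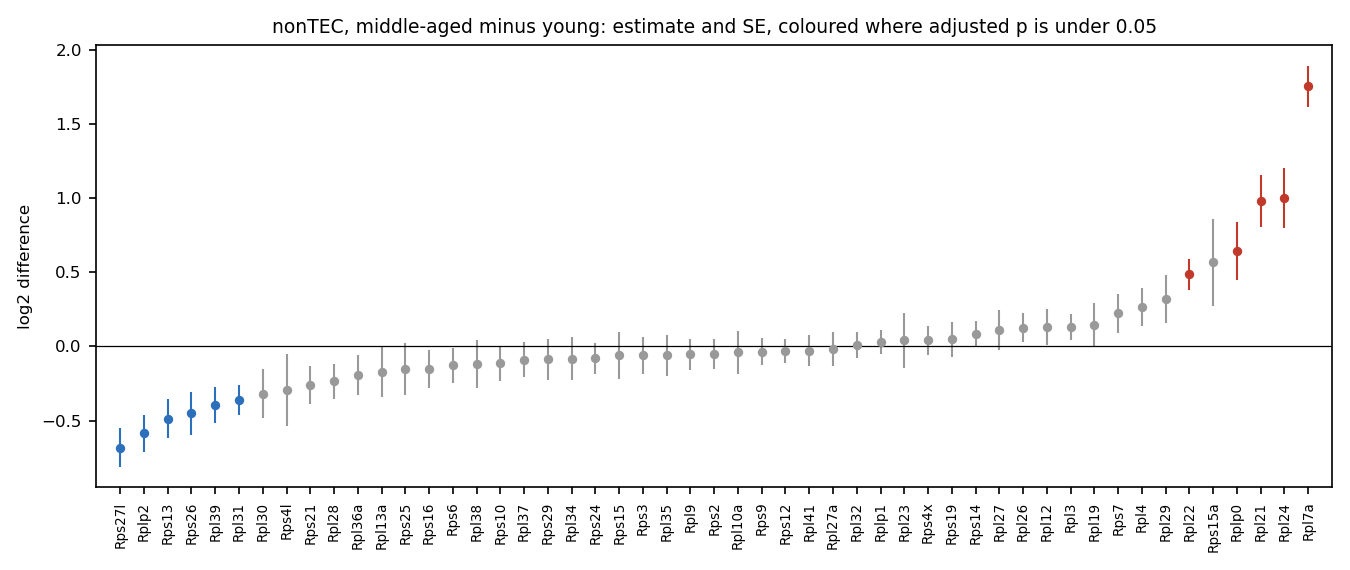
Log2 difference of middle-aged from young nonTEC for the 51 members tested (points) with the SE (bars), in order of size, red where called higher and blue where called lower at a limma adjusted p under 0.05. Rpl7a stands far to the right at 1.75, and the 6 members called lower lie between -0.68 and -0.36.

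Leukocyte markers also fell with age in nonTEC, where 15.6% of all genes were called lower and 16.9% higher. The 7 pan-leukocyte markers had group means of 8.70 in young and 7.00 in middle-aged nonTEC, the 4 B cell markers 8.59 and 5.24, the 10 thymocyte markers 8.10 and 6.90, and 13 of the 13 cell cycle genes tested were called lower. In the sham groups the pan-leukocyte markers were at 6.59 on day 4 and 7.06 on day 7, and the thymocyte markers at 6.66 and 6.99. Of the 6 TEC markers tested in nonTEC 5 were called lower with age, and of 5 myeloid markers 5. Their part in the changes of the members was not tested.

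Other genes of ribosome production were also called in ageing nonTEC, where 16.9% of all genes were higher and 15.6% lower. Of 68 mitochondrial members tested, 19 were called lower and 0 higher, among them Mrpl54 (-1.07) and Mrpl43 (-0.85). Of 34 genes of ribosome assembly, 5 were called higher and 6 lower, for example Nop14 (0.70) and Nhp2 (-0.95). Of 12 genes of RNA polymerase I, which transcribes ribosomal RNA, 1 was higher, the catalytic subunit Polr1a (1.02), and 2 were lower. Of 8 genes that control the class, 3 were higher, including Myc (0.81) and Rptor (0.62), and 2 lower, including the mTOR activator Rheb (-0.53). Of 17 translation factors with TOP mRNAs, 2 were higher and 1 lower.

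Within a fraction, the largest number of members called was that between day 20 and the earlier days in TEC, with castrated and sham groups averaged. Of 51 members 17 were called lower and 6 higher, against 38.4% and 25.7% of 8195 genes, so the share of members called was below that of all genes. The day after surgery and any batch of the day 20 arrays cannot be told apart. Rpl24 fell most: its 6 day 20 arrays read 10.73 to 11.50 with a median of 11.2, and the 12 arrays of days 4 and 7 read 12.13 to 13.54 with a median of 12.5. The difference was -1.50 ± 0.21, 2.82-fold (limma adjusted p = 5.4e-06). Rpl29 had 11.40 to 11.82 against 12.40 to 12.91, a difference of -0.97 ± 0.08 (limma adjusted p = 1.47e-08). Rpl19, another large-subunit protein, had 10.93 to 11.28 against 11.79 to 12.19, a difference of -0.94 ± 0.08 (limma adjusted p = 9.02e-09). In all 3 the arrays of the 2 sides did not overlap.

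The same held for 4 more of the 17 members called lower, 7 of 51 tested in all (13.7%), against 15.3% of all genes that were called lower without overlap. They were Rpl21 (6.56 to 7.38 against 7.42 to 8.19), Rps15 (12.02 to 12.42 against 12.53 to 12.98), Rpl34 (12.09 to 12.44 against 12.72 to 13.07) and Rpl27 (13.03 to 13.26 against 13.30 to 13.58). In the stalk Rplp0 and Rplp2 fell by 0.61 and 0.36, with arrays that overlapped or met, and Rplp1, near the ceiling, had a difference of 0.03 that was not called. Rpl7a fell by 0.69 ± 0.22 (limma adjusted p = 0.00942), with 9.68 to 10.37 at day 20 against 9.57 to 12.02 before. Among the smaller falls was Rps19, the gene most often mutated in Diamond-Blackfan anaemia, by 0.16 ± 0.05 (limma adjusted p = 0.0126).

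The members called higher at day 20 were Rps15a, Rpl36a, Rps3, Rpl27a, Rpl3 and Rpl37. Rps15a passed the entry level in TEC only through the sham day 20 group, at 7.20, 7.16 and 6.92, so a difference at day 20 had to follow and nothing is read from it. Its castrated day 20 arrays read 5.91, 6.59 and 5.88. Rpl36a rose by 0.37 ± 0.12 (limma adjusted p = 0.0108) and the other 4 by 0.14 to 0.23. For Rpl27a the call depended on the probe, since its other 2 probes fell by 0.37 and 0.14.

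**Figure D4:**
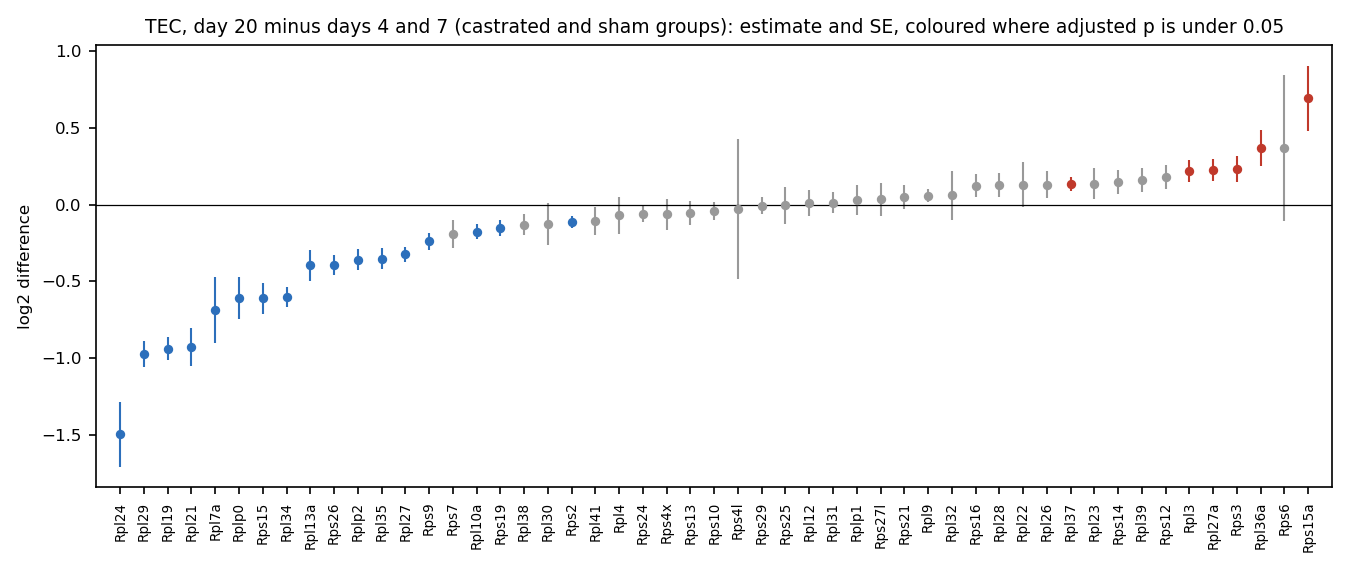
Log2 difference of day 20 from days 4 and 7 in TEC, castrated and sham groups averaged, for the 51 members tested (points) with the SE (bars), red where called higher and blue where called lower at a limma adjusted p under 0.05. Rpl24 lies lowest at -1.50, the 17 members called lower reach up to -0.11, and the wide bars belong to Rps6 and Rps4l.

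Beside the cytosolic members, 48 of 66 mitochondrial ribosomal protein genes tested were called lower at day 20 and 0 higher, with a median of -0.55, against -0.04 for the cytosolic members and -0.11 for all genes. Mrpl34 (-1.40) and Mrpl58 (-1.47) are examples. Over all genes 38.4% were called lower and 25.7% higher in this comparison. Of 11 RNA polymerase I genes 6 were lower and 2 higher, with Polr1d at -1.27, and of the 8 control genes 2 were lower and 2 higher. Of 32 assembly genes 14 were lower and 4 higher, with Mrto4 at -0.99, and of 16 translation factors 3 were lower and 7 higher. Larp1, whose protein binds TOP mRNAs, was higher by 2.35 ± 0.26 (limma adjusted p = 2.59e-07). The 7 pericyte and smooth muscle markers, with group means of 8.08 to 8.58 on days 4 and 7, were at 7.37 and 7.76 at day 20, and 4 of the 6 tested were called lower. Lower calls were also made for 3 of 4 endothelial, 3 of 4 thymocyte, 2 of 2 B cell and 3 of 3 erythroid markers, while 5 of 11 TEC markers were higher and 2 lower, with group means of 10.6 and 10.8 at day 20 against 10.1 to 10.3 before. The part of these markers in the differences was not tested.

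Of the 5 members that rose with age in nonTEC, 4 (80.0%) were among the 17 that were lower at day 20 in TEC (23.5% of those): Rpl7a, Rpl21, Rpl24 and Rplp0. Those 17 were out of 51 members tested, and 38.4% of all genes were called lower at day 20. These comparisons share no arrays and lie in fractions that may have been normalized separately. Of the 6 that fell with age in nonTEC, 2 were among the 17 (Rplp2 and Rps26), and none of the 6 called higher at day 20 was called with age in nonTEC. No test of this overlap was made, and it was not counted over all genes.

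Apart from Rpl22 at day 20, castration called no member at any day. The shares of genes given here use adjusted p-values. Genes with an unadjusted p under 0.05 were not counted over all genes, so member counts at that level have no background. At day 4 in TEC 0 of 51 were called and 7 had an unadjusted p under 0.05, with 2.45% of genes called higher and 1.37% lower. The smallest p-values were those of Rpl3, which helps form the peptidyl transferase centre (-0.39 ± 0.12, limma adjusted p = 0.0624), and of Rps4l (-2.36 ± 0.74, limma adjusted p = 0.071). At day 7 in TEC 0 were called and 6 had an unadjusted p under 0.05, with 0.0732% of genes called higher and 0.0976% lower. At day 4 in nonTEC 0 were called and 4 had an unadjusted p under 0.05, with 2.58% and 3.54% of genes called, and at day 7 these numbers were 0 and 2, with 0.0515% and 0.386%. The castration difference varied over days in TEC for 0 members (1 with an unadjusted p under 0.05) and 16.9% of genes. It differed between the fractions for 0 members (5 with an unadjusted p under 0.05), with 3.68% of genes called higher and 2.37% lower. With the unoperated middle-aged arrays in place of the sham arrays, 2 members were called higher and 13 lower at day 20 in TEC (20.6% and 30.4% of genes). In nonTEC 9 were called higher and 1 lower at day 4 (4.78% and 5.72% of genes), and 5 higher and 0 lower at day 7 (7.32% and 5.41%). In the TEC comparison with unoperated arrays, castration, surgery, the day and any batch of the day 20 arrays cannot be told apart. Against the sham arrays, in the fit of all arrays of a fraction, the medians over the members lay between -0.05 and 0.03. Over the alternatives they reached 0.19 at day 4 and 0.08 at day 7 in nonTEC.

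Rps6 and Rps4l had the widest spread between TEC arrays. Rps6 is the small-subunit protein phosphorylated downstream of mTOR. It read 12.80, 13.40 and 8.63 on the middle-aged TEC arrays, 13.18, 11.84 and 10.63 on the castrated day 4 arrays and 13.03, 13.05 and 12.06 on the castrated day 7 arrays. On the other 15 TEC arrays it lay between 12.84 and 13.46, and in nonTEC between 13.03 and 13.54. Rps4l was low on middle-aged array 3 and castrated day 4 arrays 2 and 3, at 6.94, 7.68 and 6.60, against 9.75 or more on the other TEC arrays. Rpl24 was high on the same arrays and on castrated day 7 array 3, at 13.35, 13.52, 13.41 and 13.54. It was at most 12.73 on the other TEC arrays. The X-linked Rps4x lay between 13.68 and 14.48 in TEC, with 13.68 on middle-aged array 3, and Rps19 between 14.01 and 14.51.

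**Figure D5:**
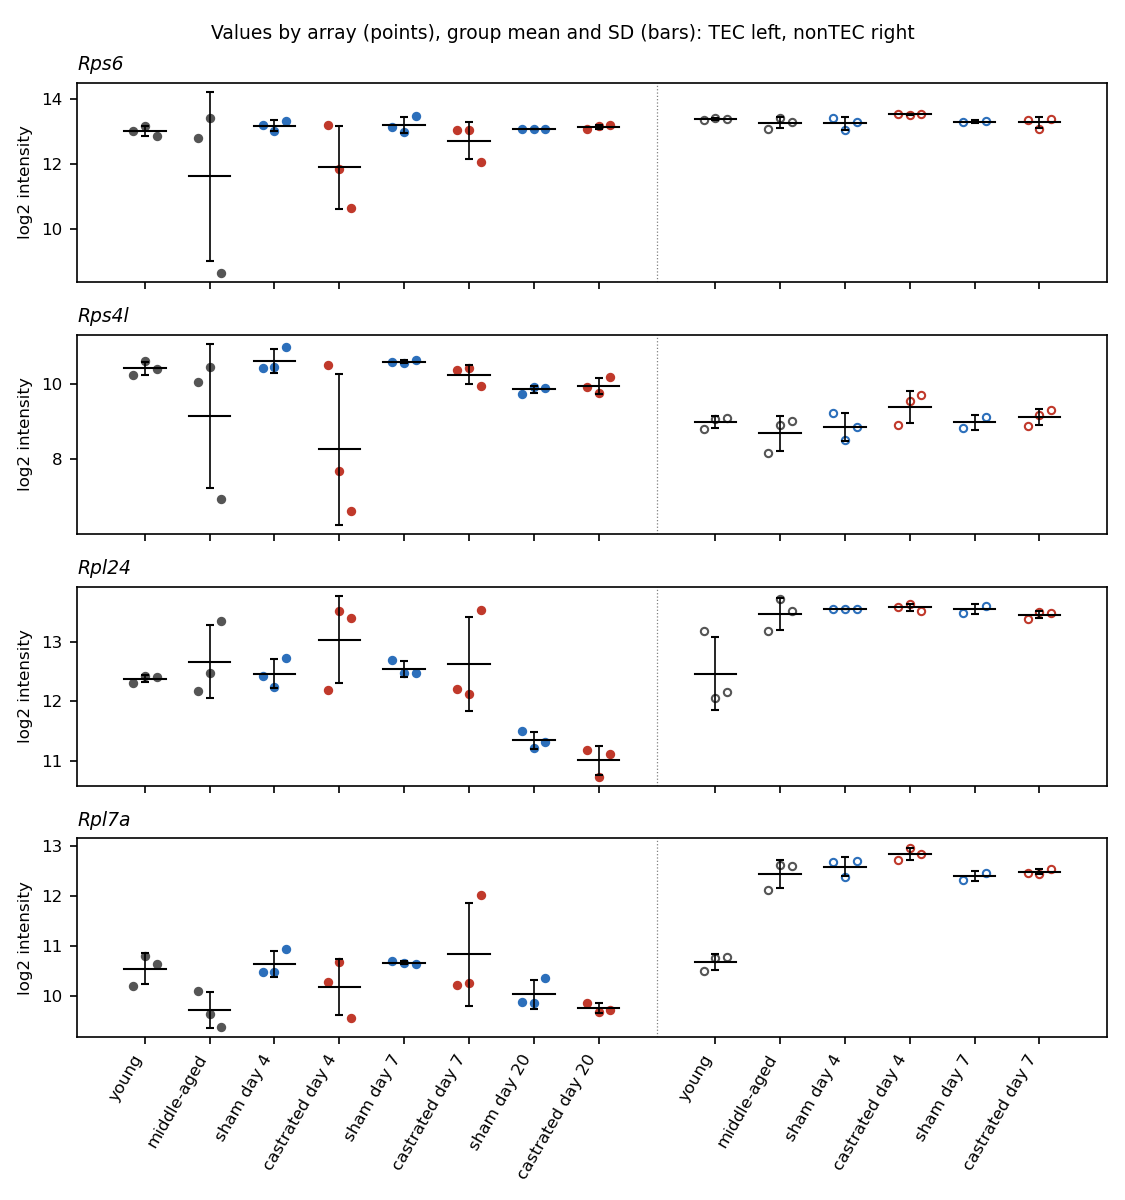
Log2 intensity of Rps6, Rps4l, Rpl24 and Rpl7a on each array (points) with the group mean and SD (bars), TEC filled and nonTEC open, for unoperated (grey), sham (blue) and castrated (red) groups. Middle-aged TEC array 3 and castrated day 4 arrays 2 and 3 lie low in Rps6 and Rps4l and high in Rpl24, day 20 lies low in Rpl24, and young nonTEC lies low in Rpl7a.

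Over all genes middle-aged array 3 and castrated day 4 arrays 2 and 3 correlated less with the others than most TEC arrays did. The median correlation with the other TEC arrays was 0.877 for middle-aged array 3, 0.893 and 0.886 for castrated day 4 arrays 2 and 3 and 0.935 for castrated day 7 array 3. The day 20 arrays had 0.867 to 0.9 and sham day 4 array 3 had 0.889. The remaining TEC arrays had 0.927 to 0.956, apart from middle-aged array 2 with 0.833, the lowest of all. Within their own group the median correlation was 0.823 for middle-aged array 3 and 0.828 for middle-aged array 2. An alternative set by an earlier analysis of these data left out middle-aged array 3, castrated day 4 arrays 2 and 3 and sham day 4 array 3, which leaves 1 castrated day 4 array that is assumed to vary like the rest. With age in TEC 2 members were then called higher, Rpl22 (0.93 ± 0.13, limma adjusted p = 7.6e-05) and Rpl21 (0.54), and 3 lower, Rpl32 (-0.82), Rps12 (-0.36) and Rpl13a, against 17.9% and 18.5% of genes. The age difference of Rpl22 between the fractions became 0.44 ± 0.16 (limma adjusted p = 0.0458). After castration Rpl22 was called at day 7 (-0.58 ± 0.12, limma adjusted p = 0.0135), with 1.4% of genes called higher and 2% lower. At day 4 its difference turned to 0.04 ± 0.17 (limma adjusted p = 0.963), the difference between fractions became -0.13 ± 0.12 (0.591), and the average over the 3 days was -0.44 ± 0.08 (0.0035).

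In the unoperated groups of both ages, 25 members were called lower in TEC than in nonTEC and 5 higher, against 47.4% and 29.3% of 8487 genes. The fractions may have been normalized separately, since the array medians over all probes were 6.677 to 6.68 in TEC and 6.811 to 6.815 in nonTEC. All genes shifted by a median of -0.26, so that the median of the members, -0.23, was close to that of all genes. After quantile normalization over all arrays 9 were lower and 23 higher (37% and 39.6% of genes), and after median centring 16 and 17 (38.5% and 37.7%). Farthest from that shift were Rps4l (0.95), whose call was lost under 11 of its 21 alternatives, Rpl7a (-1.44) and Rps26 (0.67), both of which were called with the same sign under all 21 of theirs. The Rpl7a difference averages 2 unlike ages. The young arrays overlapped, at 10.21 to 10.80 in TEC and 10.50 to 10.79 in nonTEC. The middle-aged arrays read 9.39 to 10.10 in TEC and 12.12 to 12.62 in nonTEC.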

How the data were processed

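RNA of sorted cells was measured on Illumina bead arrays. The deposited values are log2 intensities that the authors normalized, in which the arrays of a fraction share nearly the same quantiles. The submitters' processing notes name limma. The sources used here give neither the base of the logarithm nor the background correction, and base 2 was assumed. Of 24671 probes, 20825 carry 1 gene, 11 several and 3835 none in the platform annotation. Where a gene had several probes, the one with the highest mean over the arrays stood for it, and 20799 probes matched RefSeq.

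Group means were fitted with limma 3.58.1 (R 4.3.3, lmFit, contrasts, eBayes with a trend) to all arrays of a fraction, or of both for comparisons between fractions. A gene was tested where a group mean passed 6.73, the median of all values. P-values were two-sided and adjusted by Benjamini-Hochberg over all genes tested, with a threshold of 0.05. The number of arrays limits the precision. On simulated data with the sizes of these groups, changes of 1 on the log2 scale were recovered in 25 to 97% of genes, by comparison. The false share of calls there was 2.34 to 8.11%. It was 5.65% for castration at day 20 in TEC and 6.82% for the age difference between fractions. Members follow a rule on symbols, but the choice of these members and of the lists was made with earlier results of these data known. Members named were the 5 of largest difference in each direction among those called, with the stalk genes, Rpl22, Rps6, Rps19, Rps4x, the paralogs and the extremes of level and spread. Alternatives covered the filter, normalization, probe choice, trend, arrays fitted, control group, replicate block and each array left out. In the median, same-numbered arrays of different groups did not deviate together (correlation 0.047 in TEC and -0.012 in nonTEC), so the numbers were not taken as pairs. Single pairs ranged from -0.366 to 0.685 in TEC and from -0.25 to 0.431 in nonTEC, so some arrays did deviate together.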

Additional observations from a re-analysis of the deposited data

Results flagged for a closer look

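Age differences that were unlike in TEC and nonTEC by the limma test of the difference itself were found for 4 members. For Rpl7a the TEC difference minus the nonTEC difference was -2.59 (adjusted p = 0.000111), from -0.84 in TEC and 1.75 in nonTEC. For Rplp2 it was 0.635 (adjusted p = 0.0139), for Rps13 0.598 (adjusted p = 0.0329) and for Rps27l 0.689 (adjusted p = 0.0447). The call of Rps27l was lost under 15 of 21 alternatives, that of Rps13 under 10 and that of Rplp2 under 2. The latter 3 fell with age in nonTEC and were not called in TEC. The leukocyte and cell cycle genes given above fell in nonTEC alongside them, and their part was not tested.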

How the results depend on the processing

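Values here are counts of the 51 members called by limma. Fitting only the arrays compared gave 0 for age in TEC (1 in the fit of all arrays), 6 for age in nonTEC (11), 1 for the age difference between fractions (4), 5 for castration at day 20 (1), 1 for the difference over days (0) and for the castration difference between fractions (0), 7 for averaged castration in TEC (2), and 0 for sham against unoperated in both fractions (2 each). Without TEC middle-aged array 3, castrated day 4 arrays 2 and 3 and sham day 4 array 3 the counts were 5 for age in TEC, 7 for the age difference, 1, 3 and 2 for castration at day 7, at day 20 and over days, and 4 for sham against unoperated in TEC. With the other control group they were 8 for age in TEC, 15 for castration at day 20, and 10 and 5 for castration at days 4 and 7 in nonTEC. Quantile normalization gave 2 for the age difference, 3 at day 20 and 1 over days. Median centring gave 2, 3 and 1, also 1 at day 4 in TEC and 0 for sham against unoperated in nonTEC. The mean of all probes gave 2, 3 and 2, and 1 at day 4. A fit without the trend gave 3 at day 20, 1 over days and 0 for sham against unoperated in nonTEC, which was also 0 without the filter. With the replicate block, whose numbers were not taken as pairs, 1 member was called at day 4 (Rpl3) and 2 at day 20.

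Leaving out 1 array gave 0 to 4 for age in TEC, 8 to 12 for age in nonTEC, 2 to 6 for the age difference, 0 to 3 at day 4 and 0 to 2 at day 20 in TEC, 0 to 2 over days and between fractions, 1 to 5 for averaged castration in TEC, 22 to 25 for day 20 against days 4 and 7, and 2 to 4 and 0 to 6 for sham against unoperated in TEC and nonTEC. 2 named differences changed sign: Rps26 with age in nonTEC (0.22 with the sham arrays) and Rpl27a at day 20 (-0.10 with the mean of its probes). Many members lie near the top of the intensity scale, where small changes may not be seen. The cause of these shifts was not tested.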
